A study of Mus musculus with 12 samples.

Results

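A set of 9 genes that mark homeostatic microglia was followed through the striatum of mice given morphine, alone or after sodium butyrate: P2ry12, P2ry13, Cx3cr1, Itgam, Csf1r, Tmem119, Aif1, Trem2 and Siglech. They are 9 of the 19935 genes, and 9 of the 21780 probe sets with a single gene symbol, that the arrays report. Each was measured by 1 probe set, picked by its symbol in the platform annotation, and no filter on low values was applied, so all 9 are described. The genes were picked with their differences from saline in these arrays already known. Their values against saline are therefore given as a description without a test, and only the comparison of the 2 morphine groups with each other was tested for them.

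All mice were Swiss-Albino males of 2 months, and each of the 12 arrays (Affymetrix Mouse Gene 1.0 ST) carried striatal RNA pooled from 4 animals. The saline group (6 arrays) received vehicle in both injections of each induction trial. The morphine group (3 arrays) received saline and then morphine at 20 mg/kg in each of 6 trials on alternate days, and the butyrate-morphine group (3 arrays) received sodium butyrate at 300 mg/kg and then the same morphine dose. A challenge followed 7 days after the last trial, and RNA was taken 1 h later. Both morphine groups were challenged with morphine. The labels disagree on the saline group: its source name gives a saline challenge, whereas the protocol text gives morphine to every animal. A difference from saline can thus hold effects of the repeated doses and, if the source name is right, of the last dose 1 h before; these cannot be told apart. No group given butyrate without morphine was analysed here.

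The deposited values were log differences from a baseline, read here as log2. Saline arrays 1 and 2, 3 and 4, and 5 and 6 are mirror images of each other, with sums within 1.00e-06 of 0. The saline mean of every gene is therefore 0, only 3 of the 6 saline values of a gene are independent, and the level of each gene has been removed. Whether a gene was detected, or stood higher than another gene, cannot be read from such values, and the labelled tissue could not be checked against its marker genes. Array medians over all probe sets lay between -0.0153 and 0.0136. The median SD left after group means were removed was 0.0743.

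Microglia are the resident macrophages of the brain parenchyma. In the undisturbed brain they carry a surface set of receptors that read signals from neurons and from damaged cells, and several of these receptor genes are turned down when microglia become activated. Among the 9 genes, P2ry12 and P2ry13 encode receptors for ADP, a nucleotide released by injured or active cells. Cx3cr1 encodes the receptor for fractalkine, a chemokine made by neurons. Itgam encodes CD11b, the alpha chain of complement receptor 3. Csf1r encodes the receptor tyrosine kinase on which microglial survival depends, and Trem2 a lipid-sensing receptor that signals through the adaptor encoded by Tyrobp. Aif1 encodes the calcium-binding protein IBA1. Tmem119 and Siglech encode surface proteins used to tell microglia from other macrophages.

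The promoters of 4 members are shown first, for the sequence context of the 3 that stood past the threshold with morphine (P2ry13, Cx3cr1 and Itgam) and of P2ry12, the neighbour of P2ry13. Each run is the 250 bases upstream of the annotated start, read 5′ to 3′ on the strand of the gene, from RefSeq on GRCm38.p6. The windows are chr3:59210883-59211132 (minus strand) for P2ry13, chr3:59262986-59263235 (minus strand) for P2ry12, chr9:120068297-120068546 (minus strand) for Cx3cr1 and chr7:128062390-128062639 (plus strand) for Itgam. Capitals mark matches, on either strand, to GAGGAA or GGAAGT, core sequences bound by PU.1, the lineage factor of myeloid cells.
P2ry13: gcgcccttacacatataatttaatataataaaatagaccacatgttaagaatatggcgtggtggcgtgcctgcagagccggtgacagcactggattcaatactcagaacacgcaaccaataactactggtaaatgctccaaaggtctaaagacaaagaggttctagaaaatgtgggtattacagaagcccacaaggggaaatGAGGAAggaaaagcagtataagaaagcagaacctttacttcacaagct
P2ry12: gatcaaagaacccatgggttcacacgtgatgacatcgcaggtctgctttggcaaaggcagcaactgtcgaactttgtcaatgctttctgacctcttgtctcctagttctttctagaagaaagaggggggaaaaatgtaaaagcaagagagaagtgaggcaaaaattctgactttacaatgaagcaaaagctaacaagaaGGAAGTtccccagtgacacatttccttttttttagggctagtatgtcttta
Cx3cr1: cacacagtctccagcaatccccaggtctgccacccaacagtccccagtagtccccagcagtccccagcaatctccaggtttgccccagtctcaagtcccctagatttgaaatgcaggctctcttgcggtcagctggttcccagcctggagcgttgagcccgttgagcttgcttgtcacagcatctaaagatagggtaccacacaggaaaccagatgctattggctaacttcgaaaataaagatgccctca
Itgam: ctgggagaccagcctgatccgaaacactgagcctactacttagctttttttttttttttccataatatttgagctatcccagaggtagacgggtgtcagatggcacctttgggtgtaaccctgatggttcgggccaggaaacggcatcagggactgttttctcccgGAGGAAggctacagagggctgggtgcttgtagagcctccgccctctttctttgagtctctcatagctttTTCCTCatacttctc

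Windows were used for 7 of the 9 members: none was found for Tmem119, and none was used for Csf1r. GAGGAA stood in 4 of the 7, once each in P2ry13, Aif1 and Trem2 and 2 times in Itgam, against 23.3% of all 32851 upstream windows of this length. GGAAGT stood in 2 of the 7, P2ry12 and Siglech, against 19.7% of all windows. The 2 motifs overlap in part, since both hold GGAA. The glucocorticoid receptor site (AGAACA, any 3 bases, then TGTTC) stood in 0 of the 7 and in 0.0304% of all windows. The window of Cx3cr1, a gene with lower values in both morphine groups, held none of the 3 motifs.

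P2ry13 had the lowest mean of the 9 genes in both morphine groups. In the morphine arrays it read -0.53, -0.48 and -0.55, and in the butyrate-morphine arrays -0.36, -0.49 and -0.49, while saline arrays ran from -0.13 to 0.13 around a median of 0. All 6 arrays of the morphine groups lay below all saline arrays, with a clear gap. The mean difference from saline was -0.52 ± 0.03 (SD, n = 3) with morphine, or 0.697 times the saline level, and -0.45 ± 0.07 (SD, n = 3) with butyrate-morphine, or 0.733 times.

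P2ry12, the companion ADP receptor gene beside it on the chromosome, differed less from saline. It read -0.14, -0.17 and -0.29 with morphine and -0.10, -0.28 and 0.03 with butyrate-morphine, against -0.10 to 0.10 in saline. The morphine arrays lay below all saline arrays, but the butyrate-morphine arrays spread across the saline range, with array 3 above the saline mean. The mean differences were -0.20 ± 0.08 (SD, n = 3) and -0.12 ± 0.15 (SD, n = 3).

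Of the 7 protein-coding genes within 200 kb of these 2 genes, themselves included, 6 were measured. The other measured neighbours stayed near 0: Med12l, the Mediator subunit gene in whose locus the receptors lie, differed by -0.07 and -0.09 with morphine and butyrate-morphine. P2ry14, a receptor gene for UDP-sugars, differed by 0.08 and 0.03. The orphan receptor gene Gpr171 differed by 0.01 and 0.03, and Igsf10 by 0.10 and 0.02. None of these neighbours passed the test in either comparison (limma, lowest adjusted p = 0.172).

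Cx3cr1 was the second gene with separate groups throughout. It read -0.33, -0.23 and -0.34 with morphine and -0.38, -0.32 and -0.26 with butyrate-morphine, against -0.10 to 0.10 in saline. Every array of both morphine groups lay below every saline array, and the morphine groups overlapped each other. The mean difference was -0.30 ± 0.07 (SD, n = 3), or 0.812 times saline, with morphine and -0.32 ± 0.06 (SD, n = 3), or 0.8 times, with butyrate-morphine.

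Itgam read -0.12, -0.28 and -0.24 with morphine and -0.16, -0.15 and -0.10 with butyrate-morphine, and saline spanned -0.10 to 0.10. All morphine arrays stood below the saline range, as did 2 of the butyrate-morphine arrays, with the other at its lower edge. The mean differences were -0.21 ± 0.08 and -0.13 ± 0.03 (SD, n = 3 each). Siglech, a sialic acid-binding receptor gene, read -0.23, -0.23 and -0.16 with morphine and -0.10, -0.14 and -0.15 with butyrate-morphine, against -0.13 to 0.13 in saline. Its morphine arrays were again all below saline, and its butyrate-morphine arrays overlapped the lowest saline array. The mean differences were -0.21 ± 0.04 and -0.13 ± 0.02 (SD, n = 3 each).

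Aif1 was uneven between pools. It read -0.35, -0.16 and -0.09 with morphine and -0.33, -0.04 and -0.16 with butyrate-morphine, against -0.05 to 0.05 in saline. Array 1 was the lowest of both morphine groups, and 1 butyrate-morphine array fell inside the saline range. The mean differences were -0.20 ± 0.13 and -0.18 ± 0.15 (SD, n = 3 each).

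The remaining 3 genes stayed within or close to the saline spread. Csf1r read -0.04, -0.18 and -0.07 with morphine and -0.08, 0.00 and -0.02 with butyrate-morphine, against -0.10 to 0.10 in saline. Trem2 read -0.08, 0.14 and -0.14 with morphine and 0.01, -0.08 and -0.03 with butyrate-morphine, against -0.07 to 0.07. Tmem119 read 0.13, -0.04 and -0.10 with morphine and -0.16, 0.04 and -0.06 with butyrate-morphine, against -0.07 to 0.07. In each of these genes the morphine arrays overlapped saline, and in Trem2 and Tmem119 they lay on both sides of 0. The mean differences with morphine and butyrate-morphine were -0.10 ± 0.07 and -0.03 ± 0.04 for Csf1r, -0.02 ± 0.15 and -0.03 ± 0.04 for Trem2, and 0.00 ± 0.12 and -0.06 ± 0.10 for Tmem119 (SD, n = 3 each). With morphine the mean differences of the 9 genes thus ran from -0.52 for P2ry13 to 0.00 for Tmem119; differences between genes were not tested.

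**Figure D1:**
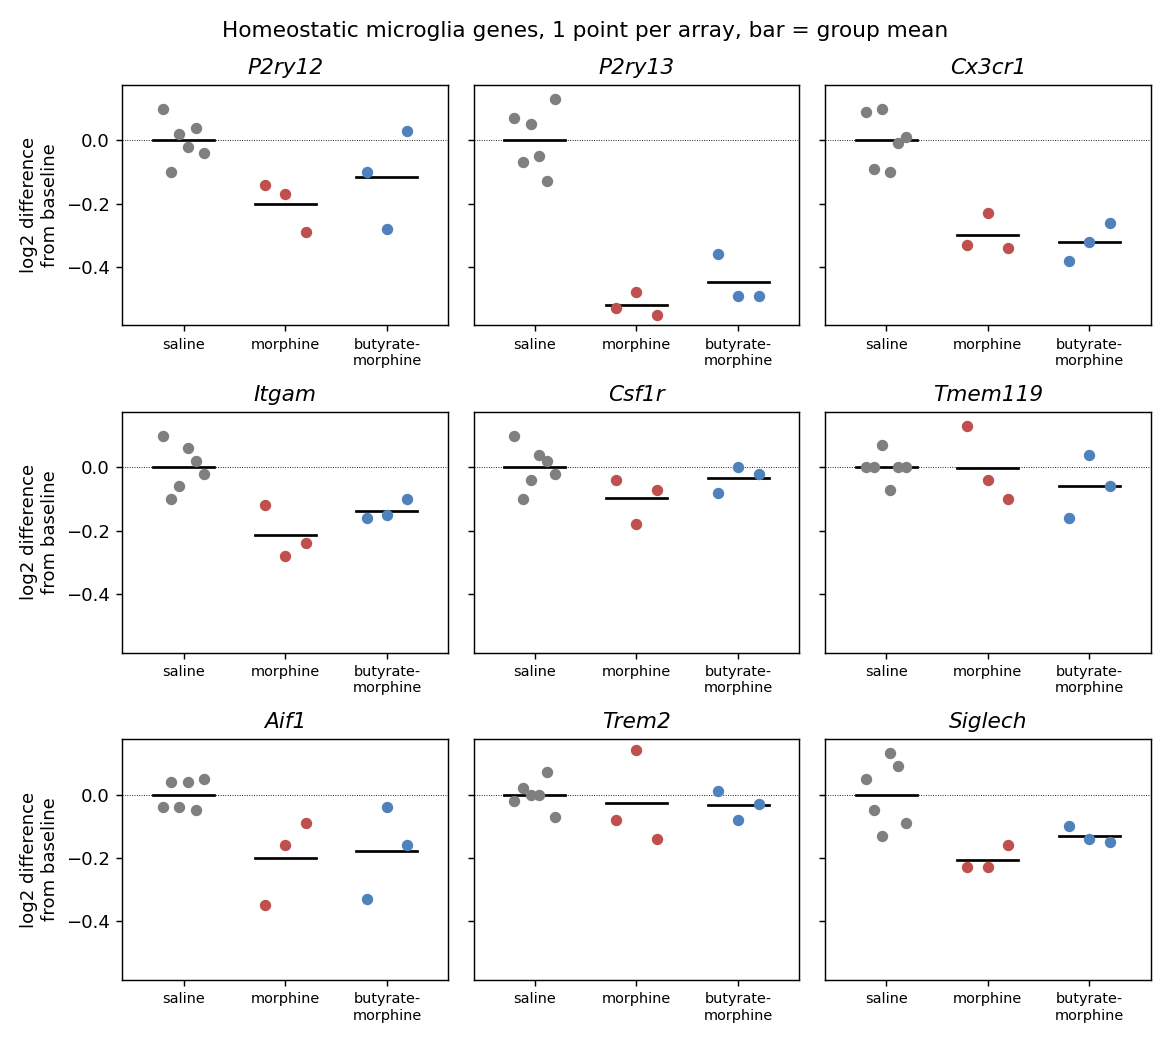
Log2 difference from baseline (vertical axis) of each of the 9 genes in every array, by group (horizontal axis); points are arrays and bars group means. P2ry13 and Cx3cr1 lie below all saline arrays in both morphine groups, whereas Csf1r, Tmem119 and Trem2 overlap saline.

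As a set, the means of all 9 genes lay below saline in both comparisons, that of Tmem119 with morphine by less than rounding shows. The median difference of the 9 was -0.202 with morphine and -0.129 with butyrate-morphine, beside -0.00327 and 0.00713 over all probe sets. The mean over the 9 genes lay between -0.0489 and 0.0489 in saline arrays, at -0.187, -0.18 and -0.222 in morphine arrays and at -0.186, -0.161 and -0.137 in butyrate-morphine arrays. Since the genes were known to be low when they were picked, and both comparisons share the saline arrays, these figures describe the set and carry no weight as evidence. In tissue RNA, fewer microglia and less of these RNAs per microglial cell cannot be told apart.

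In the fit over all probe sets (limma, Benjamini-Hochberg adjusted p under 0.05), 3 of the 9 stood past the threshold with morphine: P2ry13, Cx3cr1 and Itgam. Over all probe sets 1.15% passed as lower in that comparison; 250 of its 534 calls were lower, and 14 of 70 after quantile normalization. With butyrate-morphine 2 of the 9 stood past it, P2ry13 and Cx3cr1, where 0.592% of all probe sets passed as lower. All morphine arrays lay below all saline arrays for 6 of the 9 (4.17% of all probe sets), and all butyrate-morphine arrays for 2 of the 9 (4.57% of all probe sets). P2ry13 stayed past the threshold in each of the 12 fits that left out 1 array, in both comparisons. Cx3cr1 dropped out with morphine when morphine array 3 was left out, which brought the count of 3 down to 1. Itgam stayed past the threshold in 3 of the 12 fits, those without saline array 2, saline array 3 or morphine array 1. These fits show how far the calls lean on single arrays, and do not test genes picked as low in the same arrays. The p-values measure the spread between arrays within the groups. In saline each mirrored pair cancels out, so no spread between pairs enters, and the fit counts the mirrored arrays as separate ones.

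The comparison of butyrate-morphine with morphine asked whether butyrate during induction went with another level of these genes. No member differed past the threshold: limma called 0 of the 9, 0 of the 9 had an unadjusted p under 0.05, and the smallest unadjusted p was 0.18. Over all probe sets 0% passed, while 1898 had an unadjusted p under 0.05. The 95% intervals give the size that could have been missed only if the spread of the fit holds for the morphine groups. That spread was pooled over the arrays of all groups, and the mirrored saline arrays were counted as separate ones. For genes with more spread in the morphine groups than in saline, Aif1 and Tmem119 among them, the intervals can be too narrow. For P2ry13 the difference was 0.07 (95% interval -0.06 to 0.21, limma adjusted p = 0.805), and the interval did not reach the 0.52 that separated morphine from saline. For Cx3cr1 it was -0.02 (-0.15 to 0.11, limma adjusted p = 0.958), which likewise did not reach the 0.30 that separated morphine from saline. The differences of both groups from saline were known when the genes were picked. Setting the intervals beside them is thus a description and not a test of a return to saline.

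For the other genes the intervals left more room relative to the differences from saline. Itgam differed between the morphine groups by 0.08 (-0.04 to 0.20), Siglech by 0.08 (-0.06 to 0.21) and P2ry12 by 0.08 (-0.07 to 0.24), with limma adjusted p of 0.736, 0.774 and 0.806. For P2ry12 the interval holds both 0 and a full return to the saline level. Csf1r differed by 0.07 (-0.05 to 0.18), Aif1 by 0.03 (-0.13 to 0.19), Trem2 by -0.01 (-0.14 to 0.12) and Tmem119 by -0.06 (-0.19 to 0.08), with limma adjusted p from 0.785 to 0.983. The difference was above 0 for 6 of the 9 genes and its median was 0.0658, beside 0.0111 over all probe sets. The morphine arrays of this comparison are those in which the genes were known to be low. Of 30 other homeostatic genes limma called 0 in this comparison, and 4 had an unadjusted p under 0.05.

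**Figure D2:**
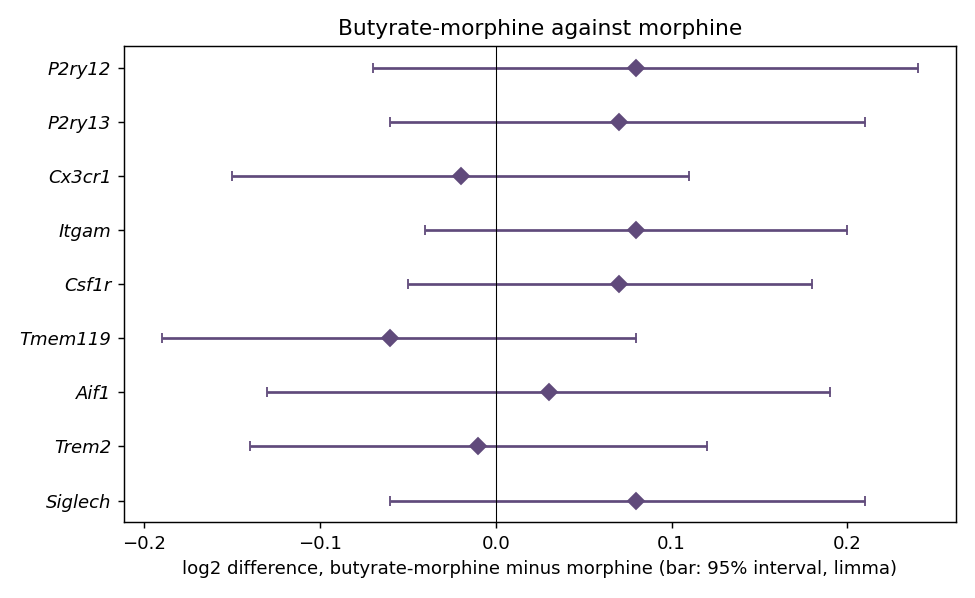
Log2 difference of butyrate-morphine minus morphine (horizontal axis) for each of the 9 genes; diamonds are mean differences of 3 against 3 arrays and bars 95% intervals from limma. Every interval includes 0, and none of the 9 reaches above 0.24.

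Other genes of homeostatic microglia were looked up to see whether the set of 9 was typical of the cell type. Of 30 such genes measured, limma called 1 lower and 0 higher with morphine, and 2 lower and 0 higher with butyrate-morphine. Over all probe sets 1.15% and 0.592% passed as lower. The median difference of the 30 was -0.0895 and -0.0527, beside -0.00327 and 0.00713 over all probe sets, with 24 and 21 below 0. For the comparisons with saline, no share of all probe sets at an unadjusted p under 0.05 is given, here or for the lists below. At that p there were 11 and 10 of the 30, of which 8 and 9 were lower. The higher ones with morphine were Sparc, Ltc4s and Ctsd, at 0.23, 0.15 and 0.11 (limma adjusted p = 0.124, 0.0974 and 0.112). Gpr84, a receptor gene for medium-chain fatty acids, was lower in both: it read -0.21, -0.12 and -0.32 with morphine and -0.19, -0.28 and -0.30 with butyrate-morphine, against -0.02 to 0.02 in saline. The differences were -0.22 ± 0.10 (limma adjusted p = 0.0188) and -0.26 ± 0.06 (limma adjusted p = 0.0066). Without morphine array 3 the first of these reached an adjusted p of 0.0878 and the list had 0 calls with morphine, while without morphine array 1 it had 4 and without butyrate-morphine array 1 or 2 it had 2 or 3. Ptprc, which encodes the leukocyte surface phosphatase CD45, was lower with butyrate-morphine by -0.20 ± 0.05 (limma adjusted p = 0.0117) and read -0.09 ± 0.07 with morphine (adjusted p = 0.225); the 2 morphine groups differed by -0.11 (adjusted p = 0.488). Without butyrate-morphine array 2 or 3 its adjusted p rose to as much as 0.0584, which left 1 call in the list, and without morphine array 3 there were 4.

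The complement genes C1qa, C1qb and C1qc, the protease gene Ctss and the lysosomal gene Cd68, all abundant in microglia, did not pass. These genes, the 3 higher ones above and the next 4 are named after their values were seen. C1qa read -0.19 ± 0.21 and -0.22 ± 0.03 (adjusted p = 0.347 and 0.221), C1qb -0.13 ± 0.05 and -0.03 ± 0.06 and C1qc -0.01 ± 0.25 and 0.07 ± 0.05. Selplg, which encodes a ligand of selectins, read -0.19 ± 0.07 and -0.22 ± 0.09 (adjusted p = 0.0923 and 0.0511). Gpr34, Fcrls and P2ry6, genes also used as microglial labels, stood close to saline with morphine, at -0.05, -0.03 and -0.02.

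Among the other genes of purinergic signalling, 10 were measured and 1 changed. Nt5e, which encodes the ecto-enzyme CD73 that makes adenosine from AMP, was higher in both groups, where 1.30% of all probe sets passed as higher with morphine and 1.76% with butyrate-morphine. It read 0.39, 0.42 and 0.27 with morphine and 0.52, 0.66 and 0.44 with butyrate-morphine, against -0.08 to 0.08 in saline. No array of the morphine groups came near the saline range. The differences were 0.36 ± 0.08 (limma adjusted p = 0.00488) and 0.54 ± 0.11 (adjusted p = 2.00e-04), and both calls held whichever array was left out. The morphine call was lost under quantile normalization, with only saline arrays 1 to 3 and with saline arrays 2, 4 and 6 set aside. Entpd1, which encodes CD39 and makes the AMP that CD73 uses, read -0.18 ± 0.06 and -0.12 ± 0.08 without passing (adjusted p = 0.0863 and 0.252). The ATP receptor genes P2rx4 and P2rx7 read -0.02 and -0.05 with morphine. Entpd1, P2rx4 and P2rx7 were named after their values were seen.

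The ligand of the fractalkine pair did not pass. Cx3cl1, which encodes fractalkine, read -0.13 ± 0.10 with morphine and -0.07 ± 0.02 with butyrate-morphine (limma adjusted p = 0.22 and 0.524). None of the 7 measured genes of fractalkine and CD200 signalling passed in either comparison, and at an unadjusted p under 0.05 there were 3 and 1. The lowest p in this list belonged to Cd200, a neuronal ligand that restrains microglia, at 0.21 ± 0.17 with morphine (limma adjusted p = 0.0826).

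Of the ligands and signalling genes of the CSF1 receptor, 9 were measured and 1 was lower with morphine, with 0 calls for butyrate-morphine (2 at an unadjusted p under 0.05). Il34, the ligand made mainly by neurons in the forebrain, read -0.12, -0.24 and -0.34 with morphine against -0.11 to 0.11 in saline, a difference of -0.24 ± 0.11 (limma adjusted p = 0.0414). The lowest morphine pool was well clear of saline and the highest lay at its edge. The call held in only 2 of the 12 fits on 11 arrays, those without saline array 3 or morphine array 1, with adjusted p up to 0.179. With butyrate-morphine Il34 read -0.15 ± 0.03 (adjusted p = 0.18), and the 2 morphine groups differed by 0.09 (adjusted p = 0.744). Csf1, the other ligand, read 0.16 ± 0.11 and 0.13 ± 0.08 (limma adjusted p = 0.267 and 0.353).

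Of 11 partners and signalling genes of TREM2, 1 changed. Ms4a4a, a membrane protein gene of the family that modulates TREM2, was higher by 0.17 ± 0.02 with morphine (limma adjusted p = 0.0166) and by 0.15 ± 0.06 with butyrate-morphine (adjusted p = 0.0354). The first call was lost without morphine array 3 (adjusted p = 0.0598), and the second stood in 4 of the 12 fits (adjusted p up to 0.159). Tyrobp, the adaptor gene, was uneven between pools. It read 0.16, -0.15 and -0.35 with morphine and -0.36, -0.15 and 0.00 with butyrate-morphine, with differences of -0.12 ± 0.26 and -0.17 ± 0.18 (adjusted p = 0.635 and 0.394).

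Itgb2, the beta chain gene that pairs with Itgam, stood at -0.02 ± 0.04 and -0.03 ± 0.15 (limma adjusted p = 0.906 and 0.844). None of the 11 integrin and complement genes passed, with 0 and 1 at an unadjusted p under 0.05. The lowest p in the list was that of C1qa, given above.

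In the TGF-beta arm, the pathway that maintains microglial identity, 1 of 10 genes was higher with morphine and none passed with butyrate-morphine (3 at an unadjusted p under 0.05). Tgfb1 itself read -0.04 ± 0.07 and -0.07 ± 0.09 (limma adjusted p = 0.781 and 0.544). Tgfb2 was higher with morphine by 0.25 ± 0.11 (adjusted p = 0.046), a call that stood in 3 of the 12 fits without an array and reached 0.155 at most. With butyrate-morphine it read 0.10 ± 0.05 (limma adjusted p = 0.399), and the 2 morphine groups differed by -0.15 (adjusted p = 0.576).

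Of 15 transcription factors of microglia, 1 was lower with butyrate-morphine and none passed with morphine (3 at an unadjusted p under 0.05). Irf8, a regulator of microglial development, read -0.15, -0.23 and -0.11 with butyrate-morphine against -0.03 to 0.03 in saline, a difference of -0.17 ± 0.06 (limma adjusted p = 0.0326). With morphine it read -0.14 ± 0.06 (adjusted p = 0.0579), and the 2 morphine groups differed by -0.02 (adjusted p = 0.928). Its butyrate-morphine call stood in 5 of the 12 fits without an array (adjusted p up to 0.149). Spi1, which encodes PU.1 and was named after its value was seen, read -0.21 ± 0.03 with morphine and -0.08 ± 0.11 with butyrate-morphine (limma adjusted p = 0.0822 and 0.538).

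Genes raised in activated or disease-associated microglia were next. Of 23 measured, 1 was higher with morphine and 1 lower with butyrate-morphine, and the medians were -0.0287 and -0.0223. Cd63, a lysosomal and vesicle tetraspanin gene found in many cells, was higher with morphine by 0.32 ± 0.13 (limma adjusted p = 0.0402), in 4 of the 12 fits without an array (adjusted p up to 0.177). With butyrate-morphine it read 0.26 ± 0.15 (adjusted p = 0.078), and the 2 morphine groups differed by -0.05 (adjusted p = 0.91). Lgals3, which encodes the lectin galectin-3, was lower with butyrate-morphine at -0.41, -0.54 and -0.17 against -0.07 to 0.07 in saline. That difference was -0.37 ± 0.19 (limma adjusted p = 0.016). The call was lost when array 1 or 2 of that group was left out, with an adjusted p of 0.0865 at most. With morphine Lgals3 read -0.26 ± 0.11 (limma adjusted p = 0.0778), and the 2 morphine groups differed by -0.11 (adjusted p = 0.749).

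None of 23 innate sensors and inflammatory mediators passed in either comparison, and 2 and 4 had an unadjusted p under 0.05. The lowest p was that of Tlr7, an RNA sensor gene, at 0.27 ± 0.18 with butyrate-morphine (limma adjusted p = 0.0617). Myd88, the adaptor gene of most Toll-like receptors, read -0.29 ± 0.02 with morphine and -0.19 ± 0.12 with butyrate-morphine (adjusted p = 0.0638 and 0.219). Tnf read -0.06 with both treatments, Il1b -0.04 and 0.01, Il6 -0.01 and 0.01, and the endotoxin receptor gene Tlr4 -0.01 and 0.04; Myd88 and these 4 were named after their values were seen. Since levels were removed from the file, whether these genes were detected is not known. With saline arrays 2, 4 and 6 set aside, which leaves 1 array of each mirrored pair, the calls of Gpr84, Ptprc, Il34, Ms4a4a, Tgfb2, Irf8, Cd63 and Lgals3 were all lost, and that of Nt5e held with butyrate-morphine.

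**Figure D3:**
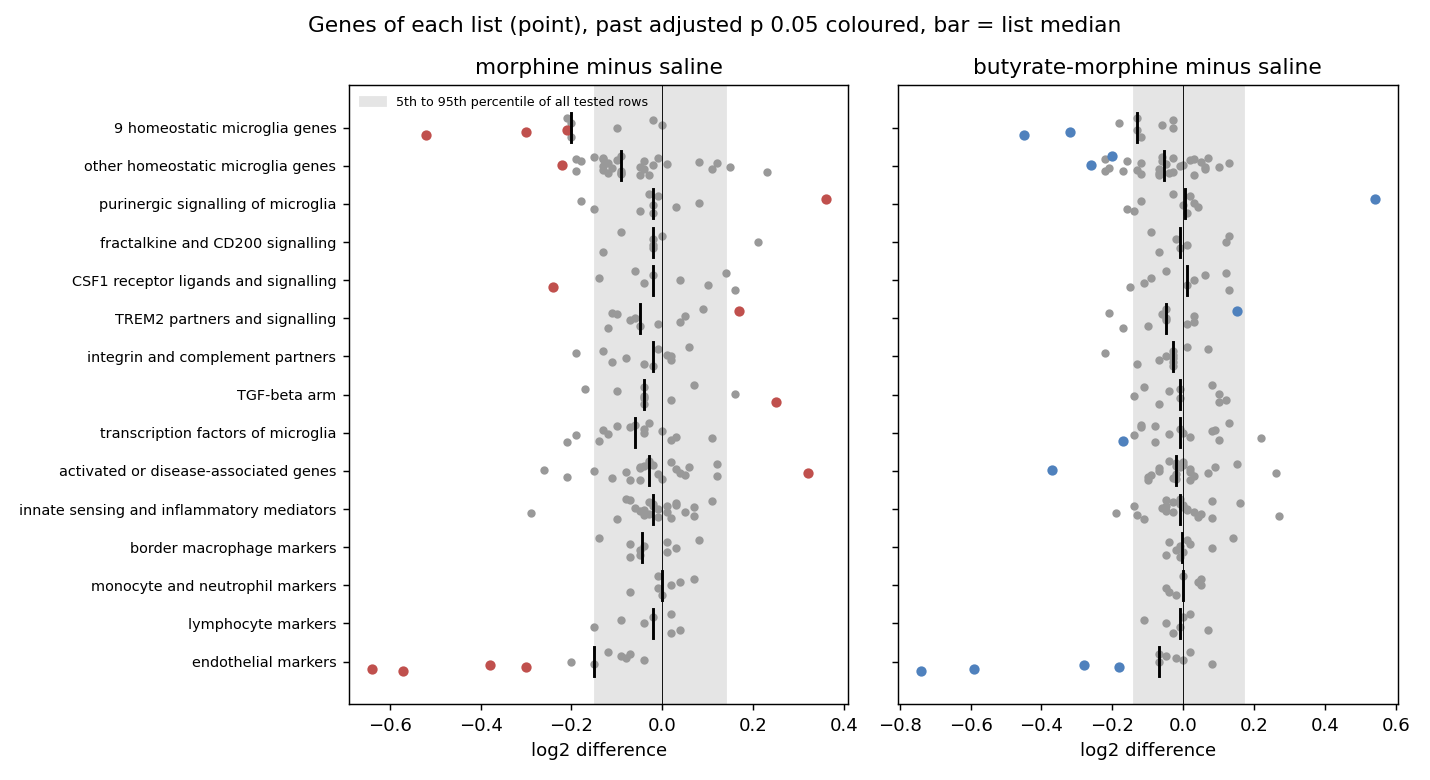
Log2 difference from saline (horizontal axis) of the genes of each list (rows), for morphine (left) and butyrate-morphine (right); points are genes, coloured points passed adjusted p 0.05, black bars are list medians and the grey band spans the 5th to the 95th percentile of all probe sets. P2ry13 and Cx3cr1 are the 2 leftmost points of the top row at -0.52 and -0.30 (left), while most points of the signalling and inflammatory lists lie inside the band.

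Markers of other immune cells were checked because Itgam, Aif1, Csf1r and Cx3cr1 are also carried by macrophages at the borders of the brain and by blood monocytes. None of 10 border macrophage markers, 7 monocyte and neutrophil markers or 7 lymphocyte markers passed in either comparison (limma). At an unadjusted p under 0.05 there were 0, 0 and 1 with morphine and 0, 0 and 0 with butyrate-morphine. The mean log2 difference over each list ranged in saline, morphine and butyrate-morphine arrays from -0.0223 to 0.0223, -0.0465 to -0.0187 and 2.91e-04 to 0.0219 for border macrophages. For monocytes and neutrophils the ranges were -0.0369 to 0.0369, -0.0162 to 0.0437 and -0.00798 to 0.0155. Lymphocyte markers ranged from -0.0558 to 0.0558, -0.0787 to 0.0581 and -0.0211 to -0.00833. The genes of lowest p were Clec12a at -0.14 ± 0.14 and 0.14 ± 0.08 (adjusted p = 0.384 and 0.33, and 0.375 for the difference of 0.28 between the morphine groups), S100a8 at -0.07 ± 0.02 and -0.04 ± 0.04 (adjusted p = 0.554 and 0.749), and Cd4 at -0.15 ± 0.04 and -0.01 ± 0.07 (adjusted p = 0.112 and 0.918). Of 7 cell cycle genes none passed (1 at an unadjusted p under 0.05 in each comparison), and Top2a, with the lowest p, read -0.07 ± 0.05 and 0.06 ± 0.05 (adjusted p = 0.894 and 0.533, and 0.508 between the morphine groups).

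Markers of other tissue compartments did differ between the same arrays. Of 11 endothelial markers, 4 were lower in each comparison, with medians of -0.149 and -0.0732. Kdr, the main VEGF receptor gene of vessels, was lower by -0.64 ± 0.04 and -0.59 ± 0.07 (limma adjusted p = 2.51e-06 and 4.77e-06), beside -0.52 and -0.45 for P2ry13. The tight junction gene Cldn5 was lower by -0.57 ± 0.12 and -0.74 ± 0.09 (adjusted p = 0.00834 and 0.00118), the first lost without morphine array 3 (0.0557). Flt1 and Tek, vascular receptor kinase genes, were lower by -0.30 ± 0.03 and -0.38 ± 0.04 with morphine (adjusted p = 3.55e-04 and 0.004) and by -0.18 ± 0.06 and -0.28 ± 0.06 with butyrate-morphine (0.0141 and 0.0246). Both of the latter calls needed butyrate-morphine arrays 2 and 3 (adjusted p up to 0.0626 and 0.108 without 1 array), and that of Tek saline arrays 1 and 4 as well. The other endothelial markers did not pass. Of 6 pericyte markers, Rgs5 was lower with morphine by -0.26 ± 0.08 (limma adjusted p = 0.0129) and none passed with butyrate-morphine (2 at an unadjusted p under 0.05). With butyrate-morphine Rgs5 read -0.11 ± 0.09 (limma adjusted p = 0.224), and the 2 morphine groups differed by 0.14 (adjusted p = 0.482). The Rgs5 call was lost under quantile normalization, with each subset of saline arrays and with saline taken as 0.

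All 8 choroid plexus markers were higher with morphine and 7 of 8 with butyrate-morphine, by medians of 1.05 and 0.767. Ttr, the transthyretin gene of that epithelium, differed by 3.75 ± 0.08 and 3.42 ± 0.23 (limma adjusted p = 8.84e-07 and 4.77e-06), and Kcnj13 by 2.58 ± 0.31 and 2.07 ± 0.33 (4.33e-07 and 4.77e-06). Clic6 and Kl, also of that epithelium, differed by 0.83 and 1.14 with morphine and 0.75 and 0.94 with butyrate-morphine. Both calls of Ttr were lost under quantile normalization. The Aqp1 call with morphine stood in 4 of the 12 fits without an array (limma adjusted p up to 0.115). That of Otx2 with butyrate-morphine was lost without array 1 of that group (0.0693). Aqp1 and Otx2 were named after their values were seen. Of 19 glucocorticoid-responsive genes 13 were higher with morphine and 18 with butyrate-morphine, by medians of 0.479 and 0.538. Sgk1 differed by 1.06 ± 0.07 and 1.05 ± 0.12 (adjusted p = 4.33e-07 and 1.84e-06) and Zbtb16 by 0.92 ± 0.16 and 1.17 ± 0.15 (3.13e-05 and 4.77e-06). Dusp1 and Sult1a1 differed by 0.76 and 0.42 with morphine and by 1.12 and 0.54 with butyrate-morphine. Among the 18 calls with butyrate-morphine, those of Mt1, Klf9, Cebpd and Gjb6 stood in 4, 5, 6 and 5 of the 12 fits without an array. These genes were named after their values were seen.

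**Figure D4:**
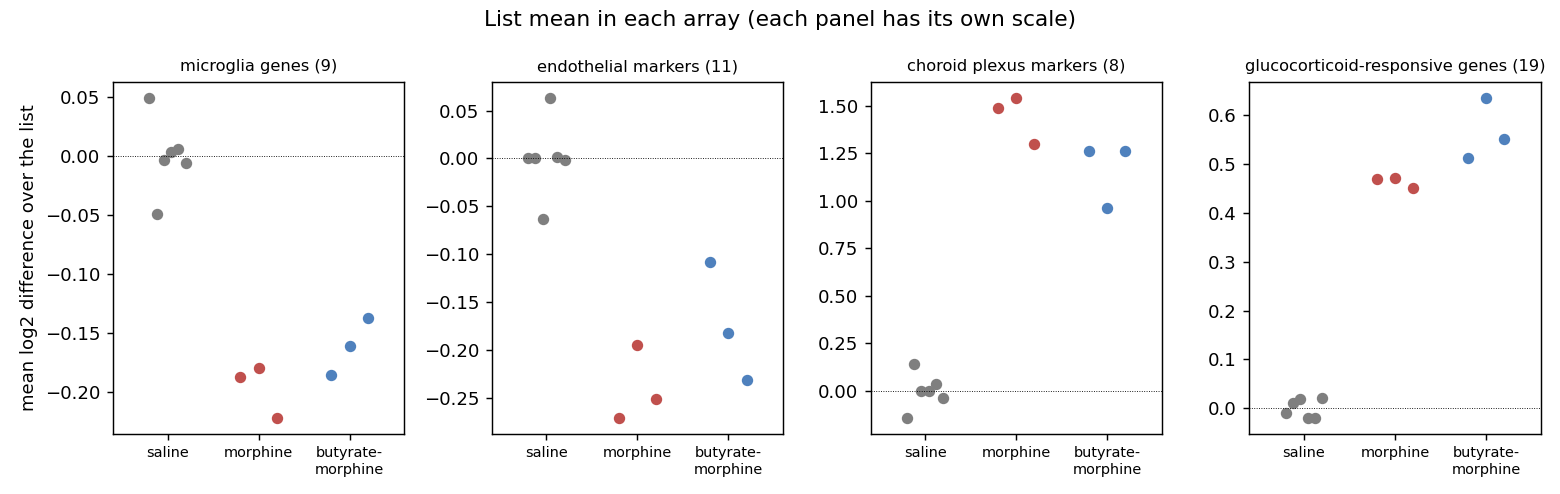
Mean log2 difference over the genes of a list (vertical axis, a separate scale per panel) in each array, by group, for the 9 microglia genes, endothelial markers, choroid plexus markers and glucocorticoid-responsive genes. In all 4 panels the 6 arrays of the morphine groups lie on one side of the saline arrays, low for microglia and endothelial genes and high for choroid plexus and glucocorticoid-responsive genes.

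Like the microglia genes, these lists had means apart from saline in both morphine groups. The endothelial list was lower, and the choroid plexus and glucocorticoid-responsive lists were higher. Endothelial means ranged from -0.0628 to 0.0628 in saline, -0.271 to -0.195 in morphine and -0.231 to -0.108 in butyrate-morphine arrays. Choroid plexus means ranged from -0.142 to 0.142, 1.3 to 1.54 and 0.96 to 1.26, and glucocorticoid-responsive means from -0.0199 to 0.0199, 0.452 to 0.472 and 0.512 to 0.635. The part of these other differences in the lower values of the microglia genes was not tested. Among 9 markers of striatal projection neurons 3 were lower with morphine, Bcl11b (-0.29 ± 0.09, limma adjusted p = 0.00239), Pde10a (-0.17 ± 0.06, 0.0291) and Drd2 (-0.16 ± 0.03, 0.0426), and none passed with butyrate-morphine (1 at an unadjusted p under 0.05). With butyrate-morphine these genes read -0.14 ± 0.05, -0.08 ± 0.03 and -0.04 ± 0.07. The 2 morphine groups differed by 0.15, 0.09 and 0.11 (limma adjusted p = 0.409, 0.567 and 0.473). In that comparison limma called 0 of the 9 markers, while 6 had an unadjusted p under 0.05 and 0 had a difference below 0. The Pde10a and Drd2 calls stood in 7 and 3 of the 12 fits without an array. The Bcl11b call stood in all 12 but was lost with only saline arrays 1 to 3 and with saline arrays 2, 4 and 6 set aside. Of 9 astrocyte markers Gjb6 was higher in both comparisons, by 0.41 ± 0.08 and 0.31 ± 0.05 (adjusted p = 0.00651 and 0.0326; the second in 5 of the 12 fits). None of 9 oligodendrocyte markers passed, with 0 and 3 at an unadjusted p under 0.05, and Mag, of lowest p, read 0.01 ± 0.07 and 0.15 ± 0.05 (adjusted p = 0.942 and 0.127).

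The genes whose values most resembled the mean of the 9 over the 12 arrays were ranked by Pearson r, as a description, since the saline arrays are mirrored and the groups differ. The first was Slc40a1, the iron exporter ferroportin, with r = 0.979 over 12 arrays and 0.617 after group means were removed. It read -0.49 with morphine and -0.40 with butyrate-morphine, beside -0.52 and -0.45 for P2ry13. Next came Nipal4 (r = 0.972), Id3 (0.97), Calm3 (0.951), Gbp4 (0.947), Lrrc75a (0.943), Cyth4 (0.935), Kdr (0.934), Ndufb9 (0.932) and Apcdd1 (0.931). Within groups the order changed. Id3, an inhibitor of helix-loop-helix factors, kept 0.766, Cyth4, a guanine exchange factor gene of leukocytes, 0.744 and Nipal4 0.719, whereas Gbp4 had -0.0771 and Kdr -0.462. The likeness of Gbp4 and Kdr to the microglia genes over the 12 arrays thus lay in the group means and not in the pools within a group. Against saline Cyth4 read -0.24 and -0.27 and Id3 -0.37 and -0.24 with morphine and butyrate-morphine, without a test, since a gene picked for its likeness to the 9 has to be low in the same groups.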

How the data were processed

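RNA of 12 pools was hybridised to 1-colour arrays. The authors deposited 1 table of log values per probe set and array (28815 probe sets). The sources used here do not give its log base, baseline, summarisation method or genome build, and base 2 was assumed. Gene names came from the platform annotation: 21780 probe sets with 1 symbol (19935 genes) were tested, and 1605 with several symbols and 5430 with none were left out. Of those tested, 21689 matched the RefSeq table by Entrez ID.

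The deposited log2 values were used without further normalization. Groups came from the sample titles. Group means over all 12 arrays were fitted with limma 3.58.1 (lmFit, eBayes; R 4.3.3; 9 residual degrees of freedom), and p-values were adjusted over all 21780 probe sets by Benjamini-Hochberg, with a threshold of 0.05. Every adjusted p in the text comes from this fit, or from the same fit without the array said to be left out. The scripts were tested on simulated data. A gene with several probe sets was given their mean and called only if all passed in 1 direction. Promoter windows came from RefSeq (GRCm38.p6).

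The 9 genes, the other gene lists and the rules were chosen with earlier results of these data known. The text names all 9, the ligands and partners Cx3cl1, Csf1, Il34, Tyrobp, Itgb2 and Tgfb1, and from each other list up to 4 genes past the threshold by lowest p, or the gene of lowest p where none passed; it also names the 10 genes most like the mean of the 9. Others are marked where they appear. The number of arrays limits the precision. Alternatives covered the normalization, the variance model, the saline arrays used, the probe sets tested, the threshold and leaving out each array.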

Additional observations from a re-analysis of the deposited data

How the results depend on the processing

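Among the 9 genes, the 3 past the threshold with morphine became 1, P2ry13, under quantile normalization, with a replicate block on numbers 1 to 3, with only saline arrays 1 to 3 and with only saline arrays 4 to 6; the 2 with butyrate-morphine became 1 under quantile normalization, the block and saline arrays 4 to 6. Leaving out 1 array gave 1 to 4 with morphine and 2 in every case with butyrate-morphine. Of the other homeostatic genes, the 1 with morphine became 0 under quantile normalization, trend and robust eBayes, the block, only saline arrays 1 to 3 or 4 to 6, setting saline arrays 2, 4 and 6 aside, adjusted p under 0.01 and saline taken as 0, 2 with only the groups compared and 5 at adjusted p under 0.1 (0 to 4 without 1 array). The 2 with butyrate-morphine became 0 under the block, saline arrays 1 to 3 or 4 to 6 only, and with arrays 2, 4 and 6 set aside, 1 at 0.01 and with saline taken as 0, 5 with array weights and at 0.1, and 6 with only the groups compared (1 to 4 without 1 array). Counts for this list take either direction. With morphine, the 5 at adjusted p under 0.1 include Ltc4s, which was higher by 0.15 (limma adjusted p = 0.0974). Counts for butyrate-morphine against morphine stayed at 0 for both lists under all 26 alternatives. The cause was not tested. Of 702 recomputed differences of the 9 genes, 690 stayed within 1 SD, 12 moved further, mostly those of Siglech, and none past the threshold reversed; P2ry13 with morphine read -0.38 after quantile normalization. Of 70 calls of genes in the other lists (35 in each comparison), 43 were lost under the block (both of Nt5e and those of Rgs5 and Bcl11b among them), 30 under quantile normalization, 31 and 28 with only saline arrays 1 to 3 or 4 to 6, 31 with arrays 2, 4 and 6 set aside, 17 with trend and robust eBayes, 16 with saline taken as 0, and 2 to 13 without 1 array. Over all probe sets, 534 and 512 calls with morphine and butyrate-morphine became 70 and 97 under quantile normalization, 222 and 218 with trend and robust eBayes, 49 and 38 under the block, 92 and 95 or 93 and 102 with only saline arrays 1 to 3 or 4 to 6, 102 and 135 with 3 saline arrays set aside, and 290 and 361 with saline taken as 0; without morphine array 1 or 3 the morphine count was 1092 or 219, and without butyrate-morphine array 1 the other was 206. With array weights, or with only the groups compared, butyrate-morphine had 978 or 1134. Deviations of same-numbered arrays gave no sign of pairing between morphine and butyrate-morphine, with correlations of -0.105, -0.267 and -0.226. They correlated at -0.0018, -0.178 and 0.202 between saline and morphine, and at -0.0799, 0.0317 and -0.195 between saline and butyrate-morphine. The correlations with saline cannot decide on pairing, since the saline arrays are mirror images of each other. Saline arrays 1 to 3, and likewise 4 to 6, hold 1 mirrored pair and 1 array of another pair. The settings on them, the block included, thus split a pair and rest on fewer independent saline values than the full set. Taking saline as 0 was chosen after seeing the data. A filter on dim probe sets was not run, since centred values keep no level.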
